A study of Mus musculus with 186 samples.

Results

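Hair keratins and keratin-associated proteins (KAPs) form the hair shaft and the sheaths around it, and their transcripts were followed in mouse back skin of a bleomycin model of scleroderma, a fibrotic disease. Genes were taken from the deposited count table by their GENCODE M21 name: every protein-coding gene named Krtap, and the keratins of the shaft (Krt31, Krt32, Krt33a, Krt33b, Krt34, Krt35, Krt36 and Krt81 to Krt86), of the inner root sheath (Krt25 to Krt28 and Krt71 to Krt74) and of the companion layer (Krt75). The rule found 75 of the 22095 gene IDs in the table, 20 keratins and 55 KAPs. Krtap10-10, Krtap28-10, Krt74 and Krt85 were not analysed here. The keratins lie on chromosomes 11 and 15 of the GRCm38 build, and the KAPs on chromosomes 1, 7, 10, 11 and 16. Of the 75 genes, 74 entered the tests, and Krtap13 was left out by the filter on low counts.

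All mice were female C57BL/6, about 12 weeks old, shaved between the shoulder blades and injected there under the skin with bleomycin, an antibiotic that cuts DNA, at 10 mg/kg/day or with phosphate-buffered saline (PBS). Injections started on day 0 and were given on 5 days a week over 2 weeks. Oral dosing ran from day 12 to day 27: PBS mice received vehicle, and bleomycin mice received vehicle or SB525334, which inhibits ALK5, the type I receptor for TGF-beta, at 30 mpk BID. Without oral dosing there were 8 PBS and 7 bleomycin libraries on day 7, and 8 of each on day 14. With oral dosing there were 8 PBS, 7 bleomycin and 9 bleomycin plus SB525334 libraries on day 21, and 7, 7 and 8 on day 28. Day 42 held 8 PBS and 8 bleomycin libraries, both with vehicle. The 93 skin libraries came from punch biopsies, and the labels number them without naming a mouse, so that the p-values measure the spread between these libraries.

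Total counts ran from 14.7 M to 43.1 M per skin library, so that 3 counts were worth 0.0718 to 0.205 CPM (the counts-per-million scale, here with TMM scaling between libraries). Epidermal keratins were high in all 93 libraries, Krt5 at 1025 to 3456 CPM and Krt14 at 946 to 9494 CPM, while Sftpc, the lung surfactant gene, was at 1.31 to 297 CPM. Differences between groups are log2 fold changes from edgeR with their standard error (SE). A gene is said to rise, fall or be called where its Benjamini-Hochberg adjusted p over 15825 genes was under 0.05. In whole skin, fewer hair-forming cells and less RNA per cell cannot be told apart.

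Hair follicles cycle between growth, regression and rest. In the growing follicle, cells at the base divide and then fill with type I and type II hair keratins, which pair into filaments of the shaft. KAPs are deposited between these filaments and cross-link them, the sulfur-rich ones through cysteine. The inner root sheath, with its own keratins such as Krt71, Krt25 and Krt27, moulds the shaft as it moves outward, and Krt75 marks the companion layer between the inner and outer sheaths. In adult back skin follicles rest for long periods, and growth spreads in patches, so that neighbouring areas can be in different stages.

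The genes shared a feature of their start sites that the selection did not use. RefSeq windows of 300 bases (250 before to 50 after the start, GRCm38.p6) were found for 66 of the 75 genes. The TATA box letters TATAAA, on either strand, were in 81.8% of these windows, against 13.6% of all 32851 windows. On the gene's own strand, beginning 40 to 19 bases before the start, they were in 59.1% (39 genes), against 1.94% of all windows. The letters CTTTGAAG on either strand, a LEF1 site known from hair keratin genes, were in 16.7% against 1.66%, with 4 of 5 type I shaft keratins among them. Their core CTTTGA, which every CTTTGAAG holds, was in 30.3% against 16.0%, and TTTATT was in 22.7% against 19.6%. By class, TATAAA was in 14 of 14 windows of ultra-high sulfur KAPs, 13 of 14 of high sulfur KAPs, 13 of 18 of high glycine-tyrosine KAPs and 2 of 5 of other KAPs. Among keratins it was in 7 of 7 windows of the inner root sheath, 4 of 5 of type I and 1 of 2 of type II shaft keratins, and not in that of Krt75. A match of letters describes the sequence and is no measured binding.

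The windows of 5 abundant genes and of Krt75 show this arrangement, in RefSeq sequence of GRCm38.p6, all on the minus strand and written 5′ to 3′ along the gene, with TATAAA and CTTTGA in capitals. The windows are chr15:101743048-101743347 for Krt71, chr11:99322902-99323201 for Krt25, chr11:100041505-100041804 for Krt34, chr16:89487903-89488202 for Krtap8-1, chr16:89571134-89571433 for Krtap11-1 and chr15:101573855-101574154 for Krt75. TATAAA begins 40, 30, 31, 29 and 28 bases before the start of the first 5 genes, in that order. CTTTGA begins 240 and 133 bases before the start of Krt34 and 241 bases before that of Krtap11-1. The window of Krt75 holds neither run of letters.
Krt71: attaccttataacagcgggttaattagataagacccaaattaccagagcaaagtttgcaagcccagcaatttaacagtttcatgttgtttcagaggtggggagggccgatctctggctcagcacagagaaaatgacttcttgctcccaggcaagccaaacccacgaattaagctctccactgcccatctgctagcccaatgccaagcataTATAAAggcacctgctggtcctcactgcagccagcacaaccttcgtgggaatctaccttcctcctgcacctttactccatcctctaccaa
Krt25: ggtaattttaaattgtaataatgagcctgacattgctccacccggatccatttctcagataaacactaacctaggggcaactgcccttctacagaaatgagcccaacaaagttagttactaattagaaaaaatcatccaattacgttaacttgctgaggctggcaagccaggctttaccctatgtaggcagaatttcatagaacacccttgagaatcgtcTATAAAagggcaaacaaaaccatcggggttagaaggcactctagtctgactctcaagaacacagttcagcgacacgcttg
Krt34: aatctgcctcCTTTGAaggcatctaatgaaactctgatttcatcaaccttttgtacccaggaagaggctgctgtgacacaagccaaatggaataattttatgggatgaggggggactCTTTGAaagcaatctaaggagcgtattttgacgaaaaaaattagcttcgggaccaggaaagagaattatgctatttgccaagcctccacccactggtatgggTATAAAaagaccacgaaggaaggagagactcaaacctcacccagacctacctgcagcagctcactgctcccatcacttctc
Krtap8-1: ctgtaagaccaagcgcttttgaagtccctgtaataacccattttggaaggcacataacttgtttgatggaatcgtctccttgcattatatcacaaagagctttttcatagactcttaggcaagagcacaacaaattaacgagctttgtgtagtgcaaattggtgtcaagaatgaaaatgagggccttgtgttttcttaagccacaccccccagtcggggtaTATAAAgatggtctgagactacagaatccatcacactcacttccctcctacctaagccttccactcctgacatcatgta
Krtap11-1: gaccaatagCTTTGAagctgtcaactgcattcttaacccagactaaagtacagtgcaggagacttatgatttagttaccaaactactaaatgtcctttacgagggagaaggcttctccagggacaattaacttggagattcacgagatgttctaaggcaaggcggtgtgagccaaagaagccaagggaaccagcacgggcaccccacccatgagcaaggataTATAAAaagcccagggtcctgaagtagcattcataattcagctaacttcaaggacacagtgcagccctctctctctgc
Krt75: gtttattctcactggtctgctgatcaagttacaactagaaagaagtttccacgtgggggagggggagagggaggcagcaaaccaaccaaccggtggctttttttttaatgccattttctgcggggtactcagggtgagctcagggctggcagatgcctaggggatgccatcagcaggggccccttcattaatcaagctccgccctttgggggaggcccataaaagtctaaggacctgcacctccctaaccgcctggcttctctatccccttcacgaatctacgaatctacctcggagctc

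KAPs were classed by the codons of their longest coding sequence in GENCODE M21. High glycine-tyrosine KAPs, 18 genes, had at least 35% of codons for glycine or tyrosine. Of the rest, ultra-high sulfur KAPs, 16 genes, had at least 30% for cysteine and high sulfur KAPs, 15 genes, at least 10%, which left 6 others. Glycine and tyrosine were read first. Krtap28-13, Krtap5-2 and Krtap5-3 thus count as high glycine-tyrosine, although 42.75%, 34.6% and 35.11% of their codons are for cysteine. Members of a KAP family are near-identical in parts, as are Krt81 and Krt83, so that the split of reads between them is uncertain and class sums are firmer than single genes. Per kilobase of exon, the highest mean levels over the 93 libraries were those of the root sheath keratins Krt71 (563 CPM per kb), Krt27 (378) and Krt25 (371). Next came the high glycine-tyrosine KAP Krtap8-1 (231), Krtap7-1 (194) and Krtap15 (124) of the 6 other KAPs, the shaft keratin Krt33a (87.0) and the high sulfur KAP Krtap11-1 (82.6). Krt71 alone held 23.8% of the summed level of the 75 genes.

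Levels of the 75 genes spanned more than any difference between groups, because libraries of 1 group lay far apart. Summed over the 7 inner root sheath keratins, the lowest library was at 2.67 CPM (bleomycin day 14) and the highest at 26230 CPM (PBS day 42). In PBS day 21 replicate 1 the 75 genes together took 4.70% of all counts. The same library had 29 of the 75 genes at their highest level of all 93 libraries, and replicates 2 and 4 of that group had 12 and 11. The plots of summed levels by group and of every gene in every library show this spread.

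**Figure D1:**
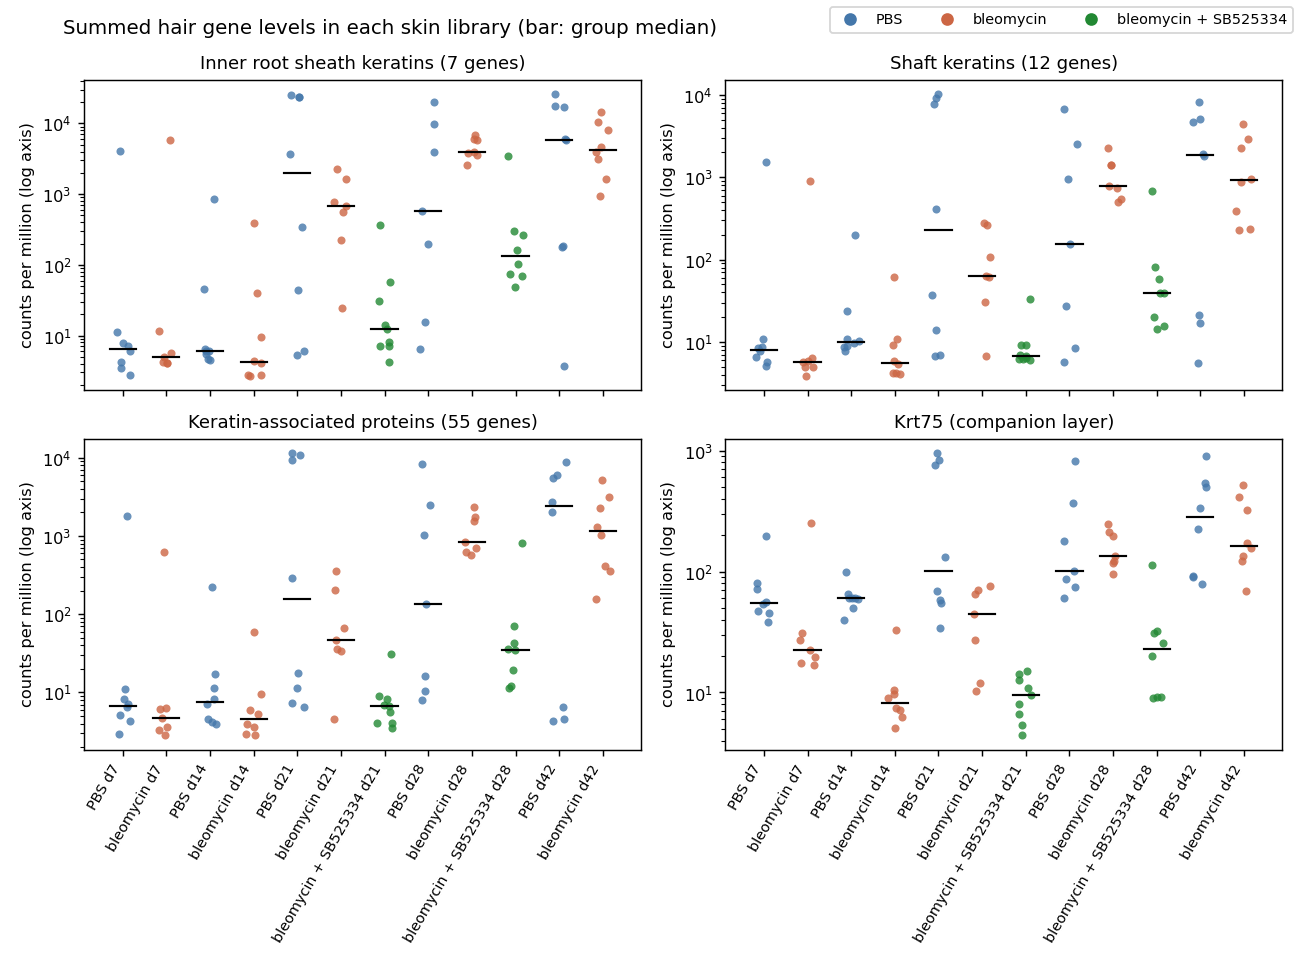
Summed CPM (log axis) of the inner root sheath keratins, shaft keratins, KAPs and Krt75 in each of 93 skin libraries, by group, where 1 point is 1 library and the bar is the group median. On days 7 and 14 most libraries are low with 1 high library per group, on later days PBS libraries spread from low to high, and the 7 bleomycin libraries of day 28 lie close together.

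**Figure D2:**
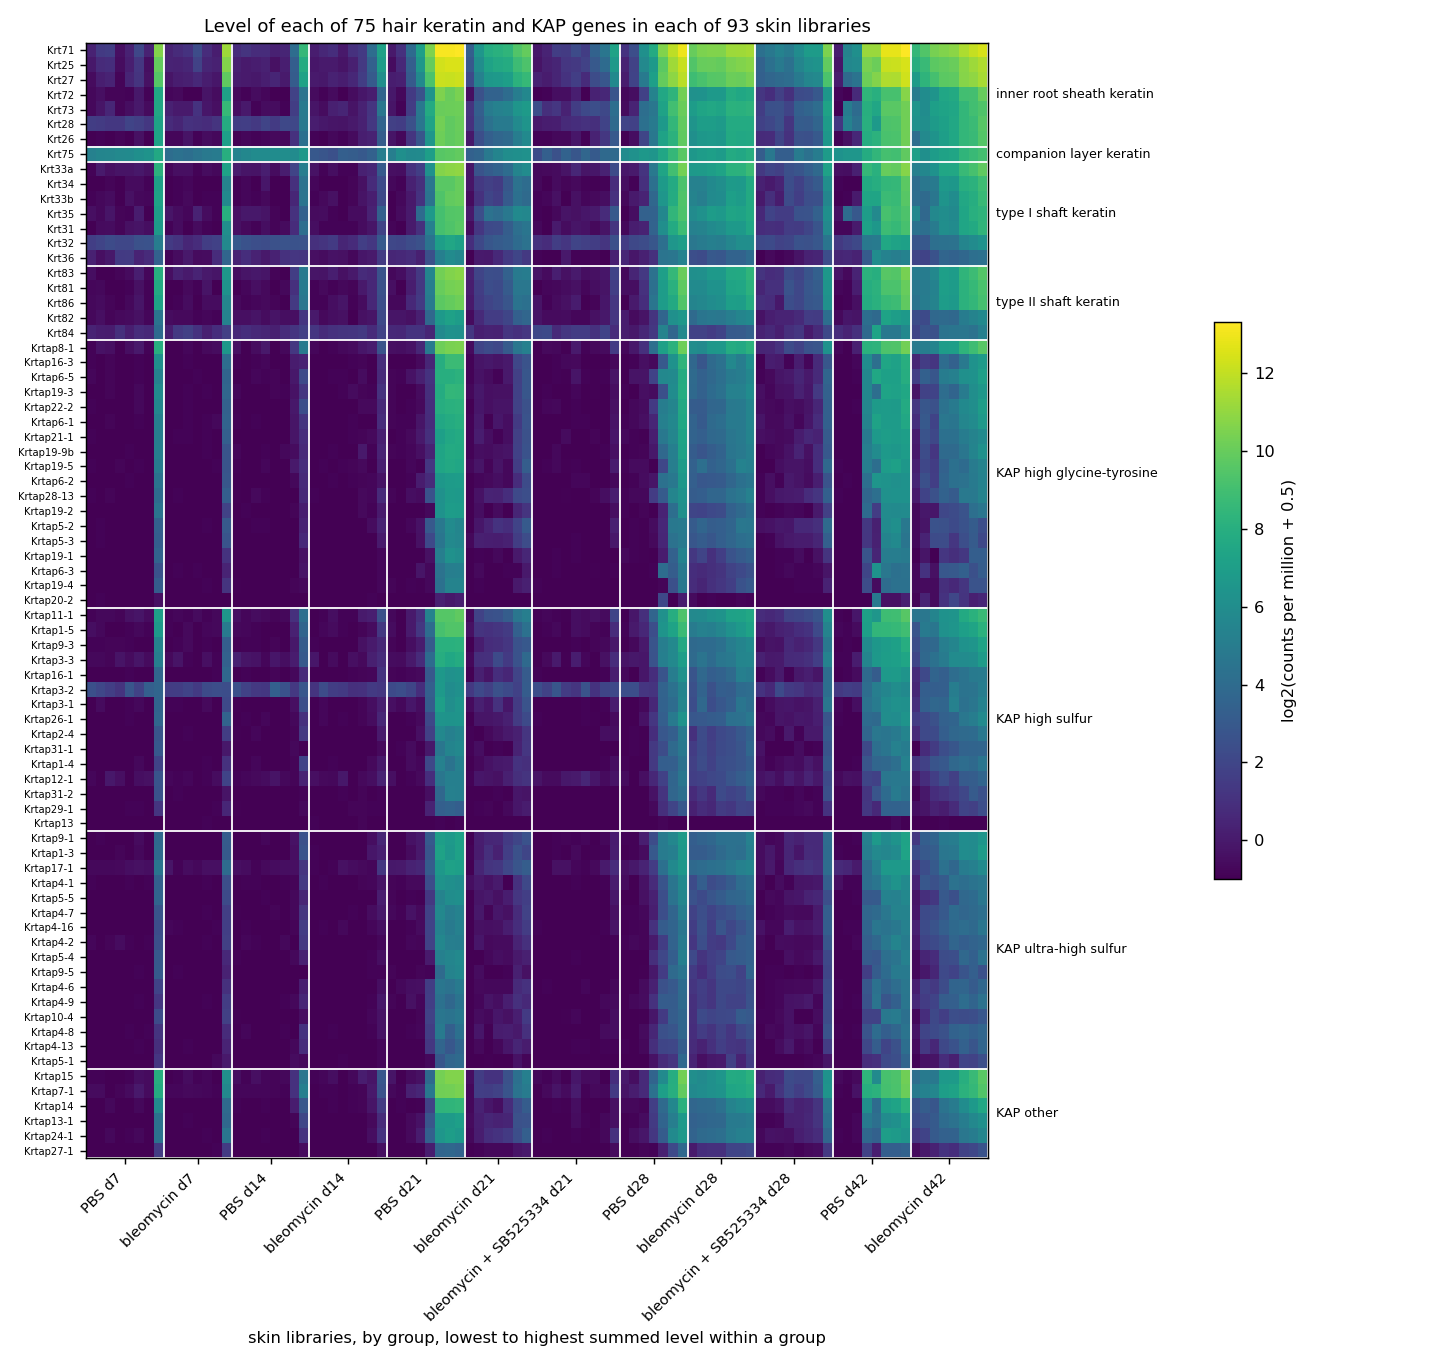
Level of each of the 75 genes (rows, by class and mean) in each of the 93 skin libraries (columns, by group and then by summed level), as log2(CPM + 0.5). The genes of a library are mostly high or low together, and Krt75 is visible in all libraries.

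Single libraries stood apart and are named here before the comparisons. On day 7, PBS replicate 5 had root sheath keratins at 4054 CPM and KAPs at 1807 CPM, where the other 7 PBS libraries had 2.76 to 11.3 CPM and 2.96 to 10.95 CPM. Bleomycin replicate 3 of day 7 had 5866 and 629 CPM, where the other 6 had 4.09 to 11.8 and 2.82 to 6.41 CPM. On day 14, PBS replicate 6 had root sheath keratins at 844 CPM (the other 7 had 4.46 to 45.4) and bleomycin replicate 4 at 387 CPM (the other 7 had 2.67 to 40.3). Of the SB525334 libraries, replicate 7 of day 21 was at 362 CPM (the other 8 at 4.24 to 57.4) and replicate 7 of day 28 at 3481 CPM (the other 7 at 48.9 to 298).

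Hair gene reads were also high in 3 lung libraries, PBS day 7 replicates 5 and 6 and PBS day 14 replicate 6, with 7366, 5159 and 6845 CPM for the 75 genes, here per library total without TMM scaling. The other 90 lung libraries had 1.41 to 264 CPM, with a median of 5.38. By the position codes in the labels, these 3 sat on plate 2 in row D, at columns 3, 12 and 9, and the skin library of PBS day 7 replicate 5 (7686 CPM on this scale) at column 6 of that row. Across the 75 genes, the log2 levels of the 3 lung libraries correlated with those of that skin library at r = 0.997 to 0.998. The value for the skin library of PBS day 21 replicate 2 was 0.991, and for bleomycin day 7 replicate 3 it was 0.930. These r describe 75 genes of single libraries and are no test. The 3 lung libraries also held Tchh, the trichohyalin of the root sheath, at 2427 to 3359 CPM (median of the other lung libraries 7.46) and Krt5 at 202 to 305 (median 1.73). Their Sftpc, at 6461 to 7599 CPM, was within the range of the other lung libraries, 3178 to 18420. Row D held 4 more skin libraries with 89.1 to 5049 CPM, 2 of them the highest of their groups, SB525334 day 28 replicate 7 and bleomycin day 21 replicate 5. Whether position had a part in these levels was not tested. Results that rest on PBS day 7 replicate 5 are given with and without it.

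**Figure D3:**
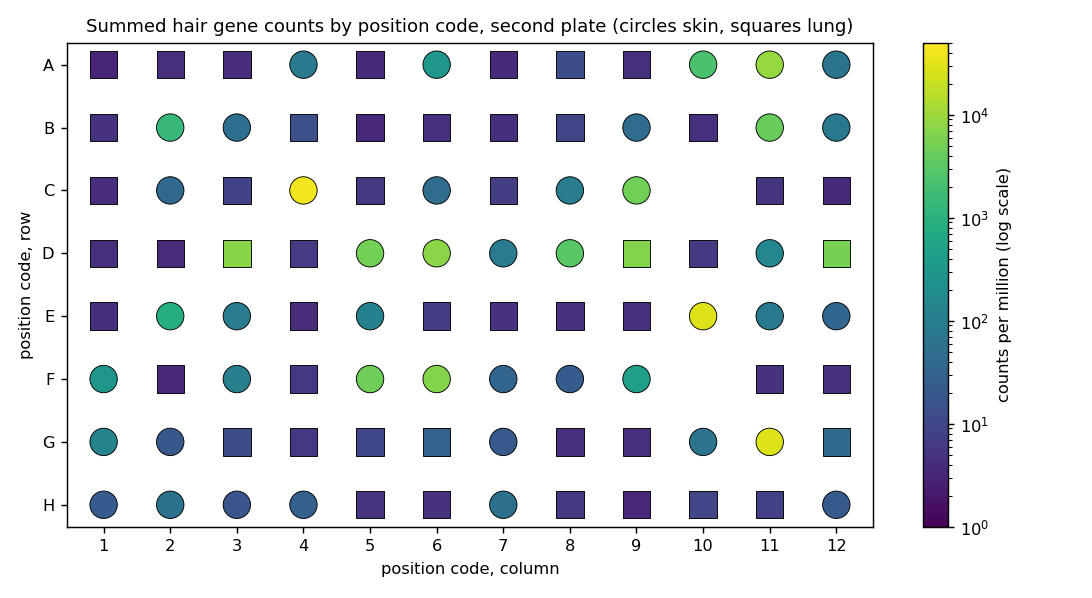
Summed CPM of the 75 genes per library total (colour, log scale) at each position code of plate 2, with skin libraries as circles and lung libraries as squares. The 3 lung squares of row D, at 5159 to 7366, are close in colour to the skin circle at column 6 of that row, at 7686.

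In PBS skin the hair genes were low on days 7 and 14 and, in some libraries, very high from day 21 on. All 74 tested genes differed across the 5 PBS days (55.2% of all 15825 genes did), and against day 7 73 rose by day 21 (26.6% of all genes rose), 11 by day 28 (13.4%) and 71 by day 42 (27.1%). On day 14 none was called (0.272% of all genes were, in either direction), and 37 had an unadjusted p under 0.05. The fold changes of day 14 were positive for 0 of the 74 genes, with a median log2 value of -2.97. The increase held for all classes on day 21, with log2 fold changes of the called genes from 2.15 to 4.84 and a median of 3.90. These contrasts share the 8 PBS libraries of day 7, of which replicate 5 was high. Without it and bleomycin day 7 replicate 3, 73 genes rose by day 21, 73 by day 28 and 74 by day 42, and still none was called on day 14. Without PBS day 28 replicate 2, the highest of its group, none rose by day 28. These calls depended on the tool and on the libraries fitted. Limma voom called 38 genes across the PBS days, and 8, 0 and 44 higher on days 21, 28 and 42. A fit of only the 2 groups compared called 1, 0 and 9 higher, and there 12, 14 and 15 of the 74 fold changes were positive, so that the direction turned for most genes.

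Krt71, a root sheath keratin, was at 0.263, 1.52 and 1624 CPM (lowest, median and highest) in PBS skin on day 7, and at 0.743, 1.27 and 371 CPM on day 14. On day 21 it was at 0.502, 820 and 10070 CPM, on day 28 at 1.64, 216 and 7838 CPM, and on day 42 at 0.622, 2323 and 10280 CPM. The lowest library of every PBS day was below 2 CPM, so that the groups overlapped on all days and the medians moved because more libraries were high. By library, the summed root sheath keratins of day 21 were at 25370, 23910 and 23890 CPM in replicates 1, 2 and 4, at 3663 in replicate 6, at 347 in replicate 3, and at 44.4, 6.14 and 5.34 in replicates 7, 5 and 8. Above 1000 CPM were 4 of 8 PBS libraries on day 21, 3 of 7 on day 28 and 5 of 8 on day 42.

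Krt33a, the type I shaft keratin of highest mean, was at 0.0437, 0.336 and 297 CPM in PBS skin on day 7 and at 0.219, 39.4 and 2015 CPM on day 21. Krtap8-1 was at 0, 0.242 and 248 CPM on day 7 and at 0.219, 14.7 and 1458 CPM on day 21. Among the genes of smallest adjusted p on day 21 were the ultra-high sulfur KAP Krtap4-8, from 0, 0 and 1.76 CPM to 0, 1.33 and 29.0 CPM (log2 fold change 4.76 ± 1.14 SE, adjusted p = 0.000681), and the high sulfur KAP Krtap3-2, from 1.71, 4.34 and 12.4 CPM to 1.30, 7.25 and 101.4 CPM (2.75 ± 0.64, adjusted p = 0.000465). For both genes the ranges of the days overlapped, and the highest libraries of day 21 lay above all those of day 7. The 11 genes that rose by day 28 were 9 ultra-high sulfur KAPs and the high sulfur KAPs Krtap1-4 and Krtap3-1, with log2 fold changes of 3.01 to 3.80. These 11 of 74 were a share near that of all genes (13.4%). Their count ran from 0 to 73 when single libraries were left out, so that the classes called are not firm. On day 42, Krt84, a type II keratin known from tongue and nail, was at 0.850, 20.2 and 156 CPM against 0.573, 0.949 and 15.9 CPM on day 7 (3.32 ± 0.83).

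In bleomycin skin the genes were low in most libraries on days 7 and 14, spread widely on day 21, and were high in every library on days 28 and 42. All 74 tested genes differed across the 5 days (64.9% of all genes did). Against day 7, 3 fell by day 14 (6.15% of all genes fell), none was called on day 21 (16.7% of all genes were, and 0 of the 74 had an unadjusted p under 0.05), 50 rose by day 28 (16.4%) and 60 by day 42 (18.7%). Without bleomycin replicate 3 and PBS replicate 5 of day 7 these counts were 0, 25, 72 and 74. DESeq2 called none on day 21 either, and limma voom called 4. The 3 genes that fell by day 14 were Krt75, Krt28 and Krt35, and Krt28 and Krt35 were higher, not lower, on day 14 once replicate 3 of day 7 was left out (log2 fold changes 0.78 and 2.44).

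Krt71 in bleomycin skin was at 0.610, 1.29 and 2407 CPM on day 7, 0.4998, 1.44 and 144 CPM on day 14, and 9.60, 275 and 977 CPM on day 21. It was at 1041, 1576 and 2738 CPM on day 28 and at 363, 1713 and 5564 CPM on day 42. The 7 libraries of day 28 lay within a narrow band and above 6 of the 7 libraries of day 7, the exception being replicate 3. Krt33a followed the same course, at 0.0600, 0.191 and 144 CPM on day 7, 0.382, 10.7 and 60.2 CPM on day 21 and 103, 159 and 434 CPM on day 28. Among the called genes of day 28, the high sulfur KAP Krtap31-1 went from 0, 0 and 0.444 CPM on day 7 to 2.45, 4.20 and 13.4 CPM (log2 fold change 6.34 ± 1.75), and Krtap1-4 from 0, 0 and 1.56 CPM to 2.82, 4.78 and 9.06 CPM (4.47 ± 1.35). For both KAPs the 2 groups did not overlap, and the share of all genes for which this held was not counted. Both were picked for a small p or a large change in this contrast, so that their separation is no further support. None of the 7 root sheath keratins was called on day 28, although their medians were far above those of day 7, and replicate 3 of day 7 lay within or above the range of day 28 for each of them. Without bleomycin day 7 replicate 1 the count of 50 was 31. Krtap20-2 was listed at 0 in all 7 bleomycin libraries of day 7 and at 0.0585, 0.897 and 3.63 CPM on day 42.

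The effect of bleomycin itself was read against PBS within each day. On days 7 and 14 most libraries of both groups were low in shaft and root sheath genes. On day 7 none of the 74 was called (46.2% of all genes were), and 3 had an unadjusted p under 0.05. DESeq2 called 2 and limma voom 1. The count turned on the 2 high libraries: without bleomycin replicate 3, 59 genes were lower in bleomycin skin, without PBS replicate 5, 25 were higher, and without both none was called. Krt71 on day 7 was at 0.610 to 2407 CPM in bleomycin and 0.263 to 1624 CPM in PBS skin (log2 fold change 0.82 ± 1.79, adjusted p = 0.734), groups that overlapped fully. On day 14, 1 gene fell, Krt75 (28.1% of all genes fell).

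Krt75 was the only gene of the 75 above 1 CPM in all 93 libraries. On day 14 it was at 39.9, 60.6 and 98.7 CPM in PBS and at 5.12, 8.23 and 32.8 CPM in bleomycin skin. Every bleomycin library lay below every PBS library, as it did for 11.8% of all genes, with a log2 fold change of -2.55 ± 0.61 (adjusted p = 0.000221). On day 7 it was at 38.4, 55.1 and 198 CPM in PBS and 16.99, 22.5 and 250 CPM in bleomycin skin (-0.62 ± 0.60, adjusted p = 0.416). Without bleomycin replicate 3 the other 6 bleomycin libraries of day 7 were at 16.99 to 31.0 CPM, below the lowest PBS library. Replicate 3 was set aside here for its high level, and the share of all genes for which this held was not counted. With all libraries Krt75 was not called on day 7. On day 14, of 14 tested genes on a list of bulge and resting follicle markers 11 fell and none rose, beside the 28.1% of all genes that fell.

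Of the other genes, Krt32, Krtap3-2 and Krt28 were the highest in skin where hair genes were low. In the 7 PBS libraries of day 7 other than replicate 5, their medians were 53.7 CPM for Krt75, 3.72 for the type I keratin Krt32, 3.62 for Krtap3-2 and 2.29 for the root sheath keratin Krt28. These 4 were above 1 CPM in all 7 libraries. Krt32 on day 14 was at 4.61, 5.61 and 7.37 CPM in PBS and at 0.889, 1.84 and 7.87 CPM in bleomycin skin, where 1 bleomycin library lay above all PBS libraries. Krt28 on day 14 was at 2.11, 2.98 and 26.8 CPM in PBS and at 0.333, 0.561 and 11.6 CPM in bleomycin skin. Neither was called.

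On day 21, when part of the PBS libraries were high, 69 of the 74 genes were lower in bleomycin skin (21.0% of all genes were lower), and none was higher. Called were all 7 type I and 5 type II shaft keratins, 17 of 18 high glycine-tyrosine KAPs, all 16 ultra-high sulfur and 14 tested high sulfur KAPs, the 6 other KAPs, Krt75 and 3 of 7 root sheath keratins. Their log2 fold changes ran from -6.71 to -2.64. The median over the 74 genes was -4.72, beside -0.03 over all genes. Krt25, Krt27, Krt71, Krt73 and Krtap20-2 were not called.

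Krt33a on day 21 was at 0.219, 39.4 and 2015 CPM in PBS and at 0.382, 10.7 and 60.2 CPM in bleomycin skin (log2 fold change -5.03 ± 1.67, adjusted p = 0.0118). Krtap8-1 was at 0.219, 14.7 and 1458 CPM in PBS and at 0.164, 4.29 and 37.3 CPM in bleomycin skin (-5.38 ± 1.72, adjusted p = 0.0088). In both genes every bleomycin library lay below the highest PBS libraries, while the low ends of the groups were alike. Krt71 was at 0.502, 820 and 10070 CPM in PBS and at 9.60, 275 and 977 CPM in bleomycin skin (-3.37 ± 1.74, adjusted p = 0.113).

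The genes of smallest adjusted p on day 21 were Krt75, Krt84, Krtap3-2 and Krtap6-3. Krt75 was at 34.4, 100 and 951 CPM in PBS and at 10.4, 44.2 and 75.3 CPM in bleomycin skin (log2 fold change -3.02 ± 0.64, adjusted p = 0.000107). Krt84 was at 0.906, 1.64 and 76.1 CPM in PBS and at 0.643, 1.495 and 1.91 CPM in bleomycin skin (-4.23 ± 0.92, adjusted p = 0.000138). Krtap6-3, a high glycine-tyrosine KAP, was at 0, 0.245 and 36.5 CPM in PBS and at 0, 0.0453 and 0.479 CPM in bleomycin skin (-6.71 ± 1.51, adjusted p = 0.000232). The medians of Krt84 differed little, so that its fold change, too, was set by the top PBS libraries. None of the 74 genes had groups that did not overlap (4.97% of all genes had). Within plates, 69 genes were lower in bleomycin skin on both. The count of 69 fell to 18 in a fit of the 2 groups alone, to 4 in the deposited log2 table and to 1 with limma voom, where 15 of the 74 fold changes were positive.

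**Figure D4:**
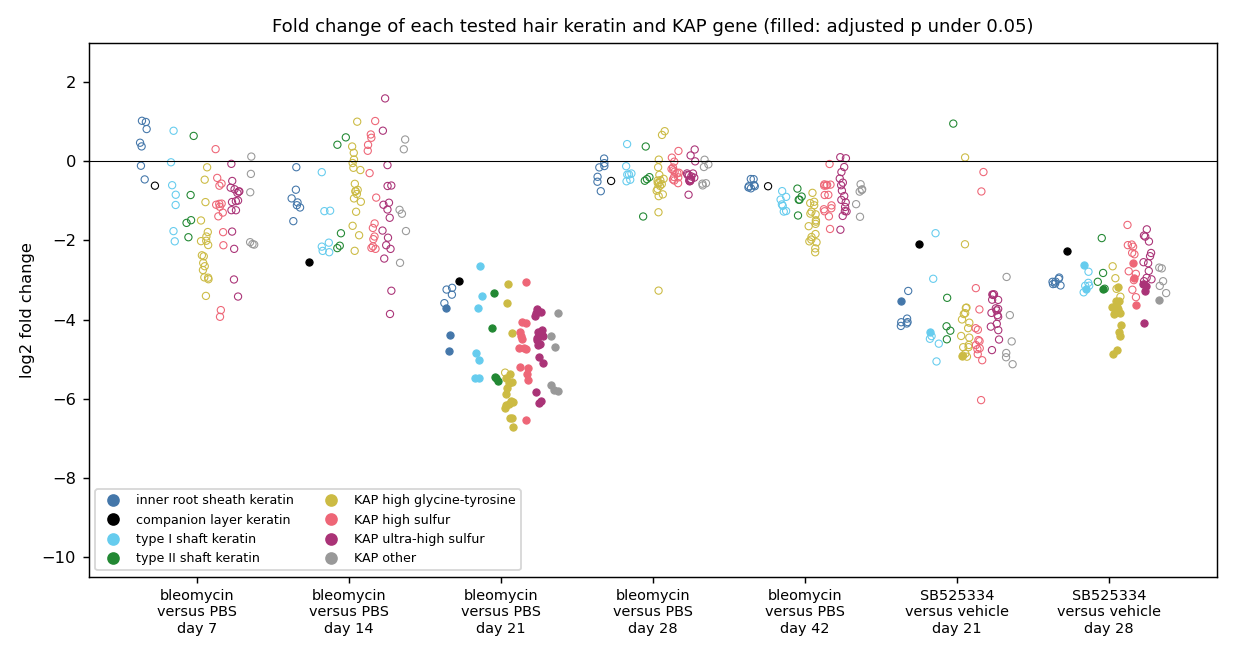
Log2 fold change of each of the 74 tested genes in 7 comparisons, coloured by class, with filled points for adjusted p under 0.05 in edgeR. Filled points are 69 on day 21 of bleomycin against PBS, 26 on day 28 and 4 on day 21 of SB525334 against vehicle, and 1 on day 14.

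On day 28 the sign of the difference depended on how libraries were averaged, since bleomycin libraries were uniform and PBS libraries were not. Krt71 was at 1.64, 216 and 7838 CPM in PBS and at 1041, 1576 and 2738 CPM in bleomycin skin. All 7 bleomycin libraries lay above the PBS median and below the 2 highest PBS libraries. With edgeR none of the 74 genes was called (24.3% of all genes were), 1 had an unadjusted p under 0.05, and Krt71 had a log2 fold change of -0.05 ± 1.62. DESeq2 called none, but limma voom with quality weights called 69 genes higher in bleomycin skin, and limma on the deposited log2 values called 2. The 24.3% is the share in edgeR, and the share of all genes called with these other tools is not given here. The median library was higher in bleomycin skin for 74 of 74 genes and the mean of the log2 levels for 71, while the ratio of the mean CPM was higher for 10. Shaft keratins (summed) were at 5.78, 156 and 6644 CPM in PBS and at 501, 789 and 2234 CPM in bleomycin skin.

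On day 42 both groups held mostly high libraries. Summed KAPs were at 4.25, 2398 and 8826 CPM in PBS and at 154, 1162 and 5146 CPM in bleomycin skin. None of the 74 genes was called with edgeR (10.2% of all genes were), 0 had an unadjusted p under 0.05, and DESeq2 called none, while limma voom called 21 higher in bleomycin skin. Krt75 was at 78.5, 282 and 899 CPM in PBS and at 69.5, 164 and 524 CPM in bleomycin skin (log2 fold change -0.63 ± 0.57, adjusted p = 0.47). The groups overlapped over most of their range. The lowest bleomycin library, at 927 CPM of root sheath keratins, was above the 3 lowest PBS libraries, at 3.68, 179 and 187 CPM.

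Whether the bleomycin effect differed between the 5 days was tested in 1 F test with 4 degrees of freedom. It called 5 of the 74 genes (62.0% of all genes were called): Krt75 (adjusted p = 0.00826), Krt84 (0.0122), Krtap5-4 (0.0293), Krtap3-2 (0.0428) and Krtap31-2 (0.0459). Krtap31-2, a high sulfur KAP, was at 0, 0.113 and 37.4 CPM in PBS and at 0, 0 and 0.408 CPM in bleomycin skin on day 21, and at 0, 0.326 and 18.1 CPM and 1.14, 3.17 and 8.11 CPM on day 28. Its PBS libraries were thus the higher ones at the top on both days, and its bleomycin median the higher one on day 28. The count was 26 without the 2 high libraries of day 7, and ran from 2 (without PBS day 21 replicate 1) to 72 (without PBS day 7 replicate 5) when single libraries were left out.

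SB525334 was compared with vehicle in bleomycin-treated mice, to ask what ALK5 inhibition changed. The hair genes called on day 28, and the few called on day 21, were all lower with SB525334. On day 28, 26 of the 74 genes fell (11.6% of all genes fell) and none rose. Called were 14 of 18 high glycine-tyrosine KAPs, 4 of 16 ultra-high sulfur and 3 of 14 high sulfur KAPs, 1 of 6 other KAPs, the type I keratins Krt32 and Krt36, the type II keratin Krt82, and Krt75. None of the 7 root sheath keratins passed. The median log2 fold change over the 74 genes was -3.05, beside 0.00 over all genes, and all 74 were lower on both plates.

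On day 28, Krt71 was at 1041, 1576 and 2738 CPM with vehicle and at 19.1, 51.5 and 1472 CPM with SB525334 (log2 fold change -3.04 ± 1.70, adjusted p = 0.186). Krt33a was at 103, 159 and 434 CPM with vehicle and at 2.09, 5.73 and 146 CPM with SB525334 (-3.07 ± 1.49, adjusted p = 0.123). In both genes only SB525334 replicate 7 reached the vehicle range, and the other 7 libraries lay below it. Leaving out replicate 7 raised the count of lower genes from 26 to 73, and 73 of the 74 tested genes then had every SB525334 library below every vehicle library (6.05% of all genes had). Replicate 7 was picked for its high summed level of these same genes, and no such pick was made for the other genes. The 73 and the 6.05% are thus not alike, and the counts without replicate 7 are no further support. Leaving out SB525334 replicate 3, the lowest, brought the count to 10, and leaving out vehicle replicate 2, the highest, to 11. With all libraries, 7 of the 74 genes lay wholly below vehicle (3.58% of all genes did): Krtap19-2, Krtap19-4, Krtap21-1, Krtap6-2, Krtap6-3, Krtap26-1 and Krt32.

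Among these, Krt32 was at 25.4, 35.2 and 67.7 CPM with vehicle and at 3.03, 4.74 and 22.8 CPM with SB525334 on day 28 (log2 fold change -2.63 ± 0.80, adjusted p = 0.0117). Krtap6-3 was at 1.13, 1.74 and 5.30 CPM with vehicle and at 0, 0.0487 and 0.365 CPM with SB525334 (-4.87 ± 1.45, adjusted p = 0.00939). Its median with SB525334 was below the value of 3 counts, which was 0.0718 CPM or more in every skin library. The size of its fold change thus rests on very few counts. Krt36, a type I keratin known from tongue and nail, overlapped slightly, at 4.42, 7.48 and 16.3 CPM with vehicle and 0, 0.250 and 4.74 CPM with SB525334 (-3.23 ± 0.95, adjusted p = 0.00892). Krt75 was at 94.9, 134 and 246 CPM with vehicle and at 8.99, 22.9 and 114 CPM with SB525334 (-2.27 ± 0.61, adjusted p = 0.00387). Krt75 with SB525334 was thus below the 53.7 CPM median of those day 7 PBS libraries in 7 of 8 libraries.

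On day 21, 4 of the 74 genes fell with SB525334, a share no higher than that of all genes (6.02%): Krt75, Krt28, Krt35 and the KAP Krtap5-2. Unadjusted p was under 0.05 for 50 of the 74. Krt75 was at 10.4, 44.2 and 75.3 CPM with vehicle and at 4.42, 9.503 and 15.0 CPM with SB525334 (log2 fold change -2.08 ± 0.59, adjusted p = 0.012). Krt28 was at 1.58, 28.0 and 83.6 CPM with vehicle and at 0.503, 1.35 and 14.8 CPM with SB525334 (-3.53 ± 1.21, adjusted p = 0.0407). Krt71, at 9.60, 275 and 977 CPM with vehicle and 0.447, 2.51 and 154 CPM with SB525334, was not called (-4.07 ± 1.67, adjusted p = 0.0996). In Krt75, Krt28 and Krt71 alike, vehicle replicates 4 and 7, whose root sheath keratins summed to 24.8 and 222 CPM, lay below the highest SB525334 library, replicate 7, and the other 5 vehicle libraries lay above it. Without SB525334 replicate 7, 16 genes were lower, without SB525334 replicate 6 or vehicle replicate 5 it was 1, and DESeq2 called 41 lower with all libraries.

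The make-up of the hair signal also varied. In the 7 highest PBS libraries of days 21 to 42, root sheath keratins summed to 2.23 to 3.15 times the KAPs. These libraries were picked for their level, while the medians that follow are over whole groups. Treatment and level can therefore not be told apart in these ratios. In bleomycin skin this ratio had a median of 7.93 on day 21, 4.50 on day 28 (2.92 to 5.70) and 3.68 on day 42, and with SB525334 on day 28 it was 4.51. Ratios were higher still in a few PBS libraries whose root sheath keratins were above those of the 7 low PBS libraries of day 7 and whose KAPs were at most little higher: 42.1 in day 42 replicate 4 (179 CPM against 4.25 CPM), 28.7 in day 42 replicate 6 and 19.7 in day 21 replicate 3. In day 42 replicate 4 the median of each KAP class was 0, while root sheath keratins were at 0.404% of their maximum.

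**Figure D5:**
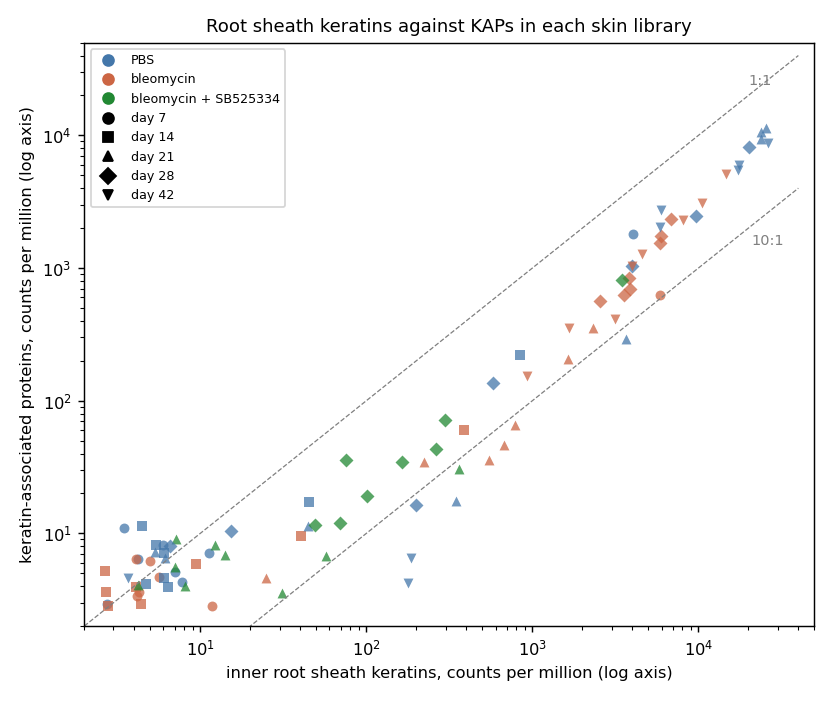
Summed KAPs against summed inner root sheath keratins in each skin library, both in CPM on log axes, coloured by treatment and shaped by day, with dashed lines at ratios of 1:1 and 10:1. Low libraries lie near 1:1, the highest libraries between the lines, and some PBS, bleomycin and SB525334 libraries at intermediate root sheath levels beyond 10:1.

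Classes did not move in step in all libraries. With each gene set to its own maximum over the 93 libraries, bleomycin day 7 replicate 3 had root sheath keratins at a median of 18.3% and high glycine-tyrosine KAPs at 3.86%, and PBS day 21 replicate 6 had 12.5% and 0.475%. PBS day 7 replicate 5, by contrast, had 15.0% and 15.7%. PBS day 42 replicate 3 showed another mix. Krt36, Krt84, Krtap6-3 and Krtap20-2 were at their maximum there and Krtap4-9 was at 92.3% of it, while Krtap19-4 was at 0.474% and Krtap19-1 at 1.22%. PBS day 28 replicate 4 leaned the same way, with Krt36 at 36.3% and Krt84 at 27.0% against Krtap19-4 at 0.146%.

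Genes that act with the hair keratins were read from lists of other hair follicle genes. Of 16 tested proteins of shaft and sheath other than keratins, 14 rose in PBS skin by day 21 and 15 were lower in bleomycin than in PBS skin on that day. Among the latter were Hephl1 (log2 fold change -1.15, adjusted p = 0.000156), Gsdma3 (-0.91, adjusted p = 0.00161) and the desmosomal Dsc2 (-1.42, adjusted p = 0.00214). Of 24 follicle transcription factors and signals, 15 rose in PBS skin by day 21, led by Hoxc13, a known activator of hair keratin genes (2.67 ± 0.55, adjusted p = 0.000134). On that day 20 of 24 were lower in bleomycin skin, among them Bmp4 (-1.16), Bmp2 (-0.86) and Gata3 (-0.58). With SB525334 on day 28, 9 fell, including Hoxc13 (-2.02) and Bmp8a (-2.65), and 2 rose, Gata3 (0.46) among them. With SB525334 on day 21, 6 fell, including Bmp4 (-0.85) and Gli1 (-1.43), and 1 rose. Of all genes, 26.6% rose in PBS skin by day 21, and 21.0% were lower in bleomycin skin on that day. With SB525334, 11.6% of all genes fell and 12.2% rose on day 28, and 6.02% fell and 5.81% rose on day 21.

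On days 7 and 14, 6 and 12 of the 24 signals were called between bleomycin and PBS skin, shares that were no higher than those of all genes (46.2% and 59.6%). Of these, 5 fell and 1 rose on day 7, and 10 fell and 2 rose on day 14, with Bmp4 at -1.04 and then -2.39. Of 14 pigment genes of melanocytes, 6 rose and 1 fell on day 7, and 12 rose and 1 fell on day 14, with Tyrp1 at 2.01 and then 2.67, where 25.5% and 31.5% of all genes rose. On day 21, 12 of 14 pigment genes were lower in bleomycin than in PBS skin (21.0% of all genes were). With SB525334, none of the 14 was called on day 21 (11.8% of all genes were) and 9 fell on day 28 (11.6%).

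Other tissue in the biopsies moved with the same contrasts, and its part in the results was not tested. Of 15 skeletal muscle genes, 14 were higher in bleomycin than in PBS skin on day 21, with summed levels of 12090, 18920 and 40220 CPM against 23.2, 3131 and 9202 CPM, and 14 fell in PBS skin between days 7 and 21. PBS day 21 replicate 1, the highest in hair genes of that group, was the lowest in muscle genes. All 18 proliferation genes were higher in bleomycin skin on days 7 and 14, and none was called on days 21, 28 and 42 or with SB525334. All 18 rose in PBS skin by day 21. With SB525334 on day 28, 10 of 13 sebaceous gland genes and 7 of 15 epidermis genes rose (12.2% of all genes did), Krt2 by 3.95, and no muscle gene was called. Of 12 fibroblast genes, 10 fell in bleomycin skin on day 7 and 12 on day 14, and with SB525334 8 fell on day 21 and 7 on day 28. All 14 adipocyte genes fell in bleomycin skin on day 14, the comparison in which Krt75 fell. So did 10 of 13 sebaceous gland genes, where 1 rose, and 10 of 16 dermal papilla genes, where 2 rose. On day 21, 8 adipocyte and 11 dermal papilla genes were lower in bleomycin skin, and 3 dermal papilla genes were higher. Of all genes, 20.7%, 28.1% and 21.0% fell and 25.5%, 31.5% and 20.2% rose in bleomycin skin on days 7, 14 and 21. With SB525334, 6.02% fell on day 21 and 11.6% on day 28. By day 21, 26.6% rose and 18.7% fell in PBS skin.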

How the data were processed

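Per the submitters' processing notes, RSEM, edgeR and the GRCm38 build were used; no tool version is named there. The values are the authors' deposited expected counts per gene, 83.7% of them whole, from stranded, ribosome-depleted total RNA, and were rounded to whole numbers. A deposited log2 expression table from the authors, with 74 of the 75 genes, served as an alternative. Skin counts were filtered (filterByExpr), scaled (TMM) and tested with edgeR 4.0.16 (quasi-likelihood F test, group and plate as terms, all 93 libraries), with Benjamini-Hochberg adjustment over 15825 genes; R was 4.3.3, limma 3.58.1 and DESeq2 1.42.0. On simulated counts for SB525334 on day 28 (15723 genes), the test recovered 86 of the 100 altered by a factor of 2 and 96 of the 100 altered by a factor of 4, with 9 false calls. The simulation drew counts around a single mean per gene and altered only genes with higher counts. It did not reproduce high and low libraries within a group, so that it gives no recovery rate for the hair genes. Named genes are the 2 of highest mean per class, per comparison up to 4 called genes of smallest adjusted p and 2 of largest fold change in each direction, and up to 3 per other list. The genes, lists and tests were chosen with earlier results of these data known. Alternatives were other tools, scalings, filters and designs, and leaving out the library of highest or lowest summed level in each group. Counting intervals were not used for tests, and the limit of 3 counts covers counting error only.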

Additional observations from a re-analysis of the deposited data

Results flagged for a closer look

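Of 48 groups and sums checked, 19 held 1 library far from the rest of its group. The 4 sums of a group share its libraries, so that 1 library can count up to 4 times. The 48 are thus not independent, and no chance rate is set beside the 19. Bleomycin day 7 replicate 3 stood apart in shaft keratins at 893.1 CPM (next library 6.405), root sheath keratins at 5866 CPM (11.76), KAPs at 628.9 CPM (6.405) and Krt75 at 250.5 CPM (30.99). PBS day 7 replicate 5 stood apart in the same 4, at 1530 CPM (next library 10.77), 4054 CPM (11.33), 1807 CPM (10.95) and 197.9 CPM (80.4). PBS day 14 replicate 6 had shaft keratins at 200.7 CPM (24.14), root sheath keratins at 844 CPM (45.35) and KAPs at 220.8 CPM (17.11). Bleomycin day 14 replicate 4 had shaft keratins at 61.78 CPM (11.04), KAPs at 59.75 CPM (9.587) and Krt75 at 32.81 CPM (10.48). With SB525334, replicate 7 of day 21 had shaft keratins at 33.25 CPM (9.337) and KAPs at 30.6 CPM (9.099), and replicate 7 of day 28 had shaft keratins at 687.2 CPM (81.88), root sheath keratins at 3481 CPM (297.9) and KAPs at 813.2 CPM (71.56).

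The bleomycin effect differed between days, by edgeR's F test of the interaction, for Krt75 (adjusted p = 0.00826), Krt84 (0.0122), Krtap5-4 (0.0293), Krtap3-2 (0.0428) and Krtap31-2 (0.0459). These were 5 of the 74 tested genes, where 62.0% of all genes were called. The count ran from 2 to 72 when single libraries were left out.

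Outside the skin libraries, hair gene reads reached 7366, 5159 and 6845 CPM, per library total, in the lung libraries of PBS day 7 replicates 5 and 6 and PBS day 14 replicate 6, where the median of the other 90 was 5.38.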

How the results depend on the processing

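Counts are of the 74 genes called, and the cause of a change was not tested. Shares of all genes called are those of the main edgeR fit, and none is given for the alternatives. With DESeq2 the counts for bleomycin against PBS were 2 on day 7 and 4 on day 14, for SB525334 41 on day 21 and 10 on day 28, for the effect between days 3, for PBS day 14 against day 7 2, and for bleomycin days 14 and 28 against day 7 11 and 25; it gave no adjusted p to 1 gene in each comparison but bleomycin day 42 against day 7. With limma voom, bleomycin against PBS gave 1, 1, 69 and 21 on days 7, 21, 28 and 42, SB525334 10 and 73, PBS across days 38, the effect between days 8, PBS days 21, 28 and 42 against day 7 8, 0 and 44, and bleomycin days 14 and 21 against day 7 1 and 4. The deposited log2 values gave 4 on day 21, 2 on day 28, 65 for SB525334 on day 28, 1 between days, 5 for PBS day 28 against day 7, and 1 and 3 for bleomycin days 14 and 21 against day 7. Fits of only the groups compared gave 4 on day 14, 18 on day 21, 28 and 72 for SB525334, 1, 0 and 9 for PBS days 21, 28 and 42, and 1 for bleomycin day 14 against day 7. With no filter SB525334 on day 21 gave 1, the effect between days 3 and PBS day 28 7. Without the plate term PBS day 28 gave 25, and with plate sections SB525334 gave 12 and 58, the effect between days 2 and PBS day 28 24.

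Replicate numbers follow plate position and do not pair the libraries: same-numbered libraries correlated at -0.543 to 0.416, with at most 3 best with their own number in a comparison. With the replicate block, SB525334 on day 21 gave 1, SB525334 on day 28 21, the effect between days 13, PBS day 28 against day 7 6 and bleomycin day 14 against day 7 1, and Krt71 on day 28 of bleomycin against PBS turned to 0.08.

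Leaving out single libraries gave 0 to 59 on day 7, 67 to 70 on day 21, 1 to 16 and 10 to 73 for SB525334 on days 21 and 28, 2 to 72 for the effect between days, 62 to 73, 0 to 73 and 52 to 74 for PBS days 21, 28 and 42 against day 7, and 0 to 9, 0 to 15, 31 to 72 and 45 to 74 for bleomycin days 14, 21, 28 and 42 against day 7. Day 14 stayed at 1 and days 28 and 42 at 0. Without both high libraries of day 7, chosen after seeing the data, the effect between days gave 26, PBS day 28 73, and bleomycin days 14 and 21 against day 7 0 and 25.

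Some log2 fold changes changed sign. For Krt71, bleomycin versus PBS day 7, the value was -0.19 with voom, -4.48 in the 2 groups alone and ran from -6.77 (without bleomycin replicate 3) to 7.58 (without PBS replicate 5). For Krt71, bleomycin versus PBS day 21, it was 0.72 with voom, and for Krt71, bleomycin versus PBS day 42, 2.2 with voom and 1.60 in the log2 values. For Krt71, bleomycin versus PBS day 28, it was 4.35 with voom, 3.43 in the log2 values, 0.68 in the 2 groups alone, 0.01 without bleomycin replicate 5, and -0.30 to 0.98 when single libraries were left out. For Krt33a, bleomycin versus PBS day 28, these were 4.40, 3.32, 0.36 and -0.65 to 0.95, and for Krtap8-1, bleomycin versus PBS day 28, 4.36, 3.20, 0.15 and -0.85 to 1.03. For Krt75, bleomycin versus PBS day 28, voom gave 0.54 and single libraries -0.66 to 0.19; the highest value of these 4 genes was without PBS replicate 2. For Krt28, bleomycin day 14 versus day 7, single libraries gave -5.54 to 0.78 and both high libraries left out 0.67, and for Krt35, bleomycin day 14 versus day 7, -7.11 to 2.44 and 2.32.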
